A study of Sorghum bicolor with 12 samples.

Results

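The Dry gene of sorghum, Sobic.006G147400 on chromosome 6 as its ID gives it, is 1 of 34129 genes named in the deposited expression table, and it was picked by that ID alone. Exactly 1 locus named it, and named no other gene, in each of the 2 parts of the table. Its identity as the NAC gene of the Dry locus is recalled from the sorghum literature, because the table lists IDs without names. RNA came from the middle stem internode of the field-grown sweet sorghum hybrid CSH22SS, in 12 libraries that make up 6 groups of 2. Booting, the stage at which the panicle is still inside the flag-leaf sheath, is followed by the milky stage of the grain and by physiological maturity. The remaining groups are also booting internodes, coded Ds1, Ds2 and Ds3, and they stand under a header on water-limiting conditions. What the code means, how severe the limitation was and whether the numbers are times are not given in the sources used here. All groups share the hybrid, the tissue and the open field, and the labels do not say which allele of Dry the hybrid carries or whether the libraries of a group are separate plants.

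NAC proteins are plant transcription factors, many of which switch on wall thickening, senescence or stress genes. At the sorghum Dry locus, a working NAC gene goes with a dry, pithy stem, and loss of its function goes with the juicy stem for which sweet sorghums are grown. Work in sorghum ties the gene to the programmed death of pith parenchyma, in which enzymes that digest the cell's own contents empty the cells and air takes the place of sap. Secondary-wall genes and lignin genes are the usual company of stem NAC factors and are therefore set beside it here.

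Transcript levels are FPKM, which scale fragment counts by transcript length and sequencing depth, and the authors deposited 1 value per group. No value therefore has a replicate error, no test between groups is possible, and each difference is described by its size against all other loci. In developing internodes the Dry gene was highest at booting, with 5.67 FPKM. It was listed at 0.0921 FPKM in the milky stage and at 2.32 FPKM at maturity. Milky was thus far below both other stages, and maturity stood between them. In the separately scaled water-limiting part, the same booting libraries gave 4.89 FPKM. Ds1 gave 33.2 FPKM and Ds2 gave 15.8 FPKM, while Ds3 gave only 3.57 FPKM. The order was Ds1, Ds2, booting and Ds3, with the first 2 above booting and Ds3 a little under it. These are bulk samples, in which fewer cells of a type and less RNA per cell cannot be told apart.

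**Figure D1:**
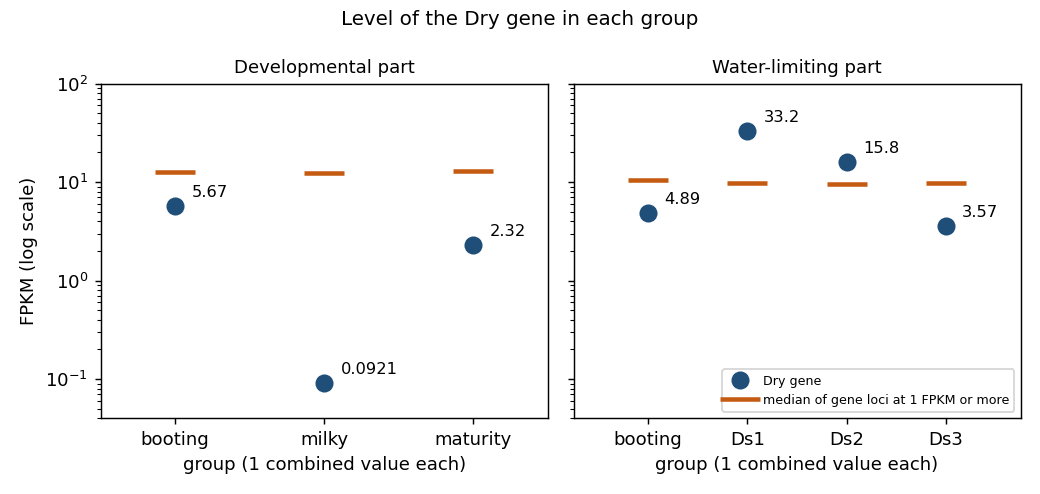
FPKM of the Dry gene on a log axis in each group of the developmental and the water-limiting part, 1 combined value per group, with the median of all gene loci at 1 FPKM or more as a bar. The gene lies under that median in booting, milky, maturity and Ds3, and above it at 33.2 FPKM in Ds1 and 15.8 FPKM in Ds2.

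Set among other genes, the Dry gene went from a modest transcript to one of the more abundant ones. At booting 63.4% of 32685 gene loci in the developmental part had a lower value, at the milky stage 36.6% and at maturity 56.3%. In the water-limiting part 64.2% of 33391 gene loci lay below it at booting. That share was 90.1% in Ds1, 81.7% in Ds2 and 61.7% in Ds3. In Ds1, 3301 gene loci had a higher value, against 11961 at booting. The rank does not depend on how the columns were scaled, only on the order of loci within each group.

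Because the booting libraries were processed in both parts, they show how far processing alone moves a value. The Dry gene read 0.862 times as high in the water-limiting part as in the developmental part, and the median gene of 14961 read 0.864 times as high. Among 4865 genes of similar booting level, within a factor of 2 of the Dry gene, the central 95% of these ratios lay between 0.625 and 1.23 times their own median. This gap holds no variation between plants or libraries. It is the sole measure of error here, between the parts rather than between groups of a part, and leaves out all biological spread.

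The first question was how the stem transcript changes as the grain fills. From booting to the milky stage the Dry gene was 61.6-fold lower in plain FPKM, and 6.11-fold lower once 1 FPKM was added to each value. On the log2(FPKM + 1) scale, which is used for every log2 change here and which understates changes of low genes, the change was -2.61. A locus naming a gene counted as higher or lower when this ratio reached 4 and its higher group had at least 1 FPKM. By this rule the Dry gene was lower in milky, as were 1.01% of 17463 loci, or 177. Of the 17463 loci, 84 lay further below booting. Among 5187 loci whose higher value was within a factor of 2 of the Dry gene's, 22 did so. A pseudocount of 5 gave a change of -1.07. From 5.67 FPKM at booting, no fall can reach a ratio of 4 at that pseudocount.

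The milky level of 0.0921 FPKM is low. Ratios between groups among very low loci piled up at repeated values, as whole fragments would give. For milky and maturity the commonest step of 0.02 in log2 held 58 of 1212 loci under 0.06 FPKM, against a median of 3 per step. Each group joins 2 libraries and locus lengths are not in the table, so the number of fragments behind the milky value could not be derived. The 61.6-fold ratio is accordingly loose.

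At maturity the Dry gene was 2.44-fold below booting in plain FPKM, a log2 change of -1.01 that did not reach the rule. A larger fall was seen at 3.90% of 17103 loci, and 0.754% reached the rule for lower. Against milky, maturity was 25.2-fold higher in plain FPKM, with a log2 change of 1.61. That change could not reach the rule. With 2.32 FPKM at maturity, the ratio on FPKM + 1 stays under 4 however low the milky value is. The rule was passed as higher by 0.583% of 17155 loci, and 215 loci lay further up. With a pseudocount of 0.1 the log2 change from milky to maturity was 3.66 and passed. Both comparisons with booting use the same libraries, so they are not independent.

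**Figure D2:**
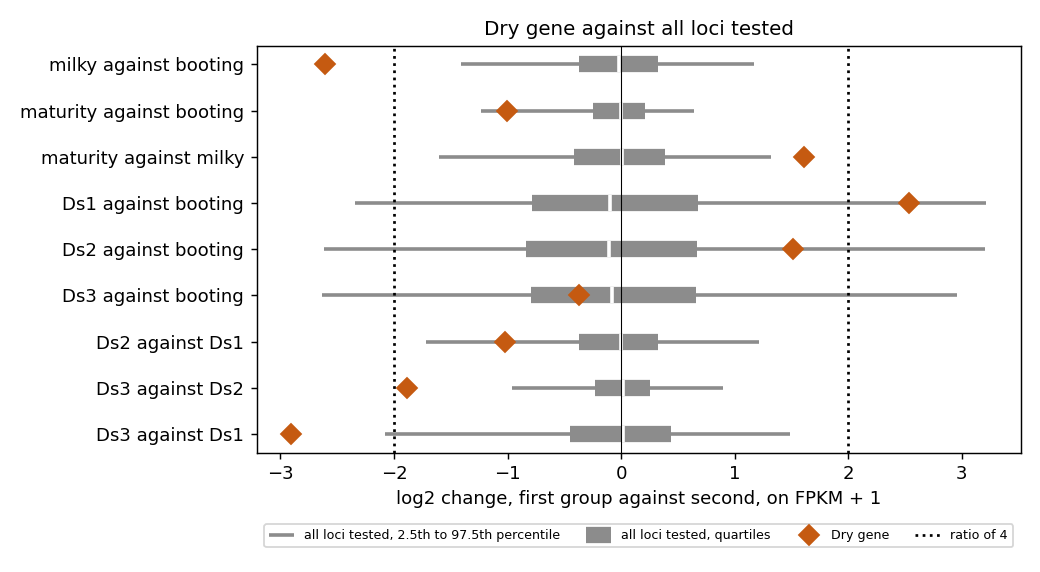
Log2 change of the Dry gene on FPKM + 1 (diamonds) in each of the 9 comparisons, over the quartiles (thick bars), median (white tick) and central 95% (thin lines) of all gene loci with at least 1 FPKM in the higher group. The diamond lies outside the thin line in milky against booting, maturity against milky, Ds3 against Ds2 and Ds3 against Ds1, with values of -2.61, 1.61, -1.88 and -2.90, and the dotted lines mark a ratio of 4.

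Next came the question of what the water-limiting codes do at booting. In Ds1 the Dry gene was 6.78-fold above booting in plain FPKM, with a log2 change of 2.54. It passed the rule, as did 6.30% of 18504 loci in this direction, so a change of this size was common there, and 764 loci went further up. In Ds2 the gene was 3.24-fold above booting, with a log2 change of 1.52. This missed the rule, which 5.96% of 18713 loci passed as higher, and 9.76% lay further up. In Ds3 it was 0.729 times booting, a log2 change of -0.37. With a common FPKM total this ratio was 0.537. The range that processing gave compares the 2 parts, not groups within a part, so it cannot tell whether Ds3 differs from booting. At the deposited scaling, 73.0% of 18644 loci had a larger change than the Dry gene in either direction. For Ds3 the rule was passed as lower by 5.16% of loci. The 3 comparisons share the booting libraries.

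The Ds values carry a caution about scale. The 10 most abundant loci held 29.8% of all FPKM in Ds1, 22.8% in Ds2 and 20.6% in Ds3, against 6.51% at booting. With each group brought to the same FPKM total, the Ds1 change was 1.73 and no longer reached the rule, and with a pseudocount of 5 it was 1.95. The gene stayed above booting in Ds1 under each of the 3 other scalings tried, and another pseudocount cannot turn the direction.

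Differences within the Ds series do not involve booting. Ds2 was 2.09-fold below Ds1 in plain FPKM, a log2 change of -1.02, and 7.15% of 17842 loci fell further. The rule for lower was passed by 1.74%. From Ds2 to Ds3 the Dry gene was 4.44-fold lower, a log2 change of -1.88. Ds2 and Ds3 were otherwise close, and 46 of 17502 loci, or 0.263%, fell further than the Dry gene. It lay just short of the rule, which 0.217% passed as lower, and a pseudocount of 0.1 took it past, at -2.12. Among 6387 loci of similar level 22 fell further. From Ds1 to Ds3 the gene was 9.30-fold lower, with a log2 change of -2.90, and passed the rule with 2.79% of 18004 loci. There 170 loci, or 0.944%, fell further.

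The whole profile was compared with those of other genes. Likeness was measured as the root mean square difference from the Dry gene over 5 log2 changes from booting, namely milky, maturity, Ds1, Ds2 and Ds3. It was computed over 15467 genes with a locus of their own and at least 1 FPKM in both parts. This difference grows with the size of the Dry gene's own changes, and it was not taken around other genes for comparison. The median gene lay 1.98 log2 units away, and 0 genes lay within 0.5. The nearest was Sobic.010G088700, at 0.543, and the table pairs none of these IDs with a name or function. In the developmental part it read 15.2, 3.88 and 10.1 FPKM at booting, milky and maturity. In the water-limiting part it read 13.1, 108, 53.2 and 12.9 FPKM at booting, Ds1, Ds2 and Ds3. Like the Dry gene, it was lowest in milky and highest in Ds1, and in Ds3 it read close to its booting level. The choice by likeness sets this resemblance.

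The next in likeness were Sobic.K028200 at 0.589 and Sobic.001G147500 at 0.656. Sobic.001G147500 was also far lower in milky, with 10.02 FPKM at booting, 0.312 in milky and 3.17 at maturity. Its values of 60.1 in Ds1 and 46.9 in Ds2 differed less from each other than those of the Dry gene. Completing the 10 were Sobic.003G034400, Sobic.001G169700, Sobic.003G093300, Sobic.004G001300, Sobic.003G162100, Sobic.008G063500 and Sobic.007G131600, out to a difference of 0.815. Over the 10 genes the log2 change had a median of -1.52 and a lowest value of -3.07 in milky, and ran from 1.24 to 2.95 in Ds1, which is what the choice by likeness sets. Pearson's r with the Dry gene over the 5 changes was 0.924 to 0.997 for them, as a description, with booting common to all 5. Membership of the list varied with pseudocount, reference and measure. A pseudocount of 0.1 or of 5 kept 4 of the 10, ranking by Pearson's r kept 1, and profiles centred on each part's mean kept 6.

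**Figure D3:**
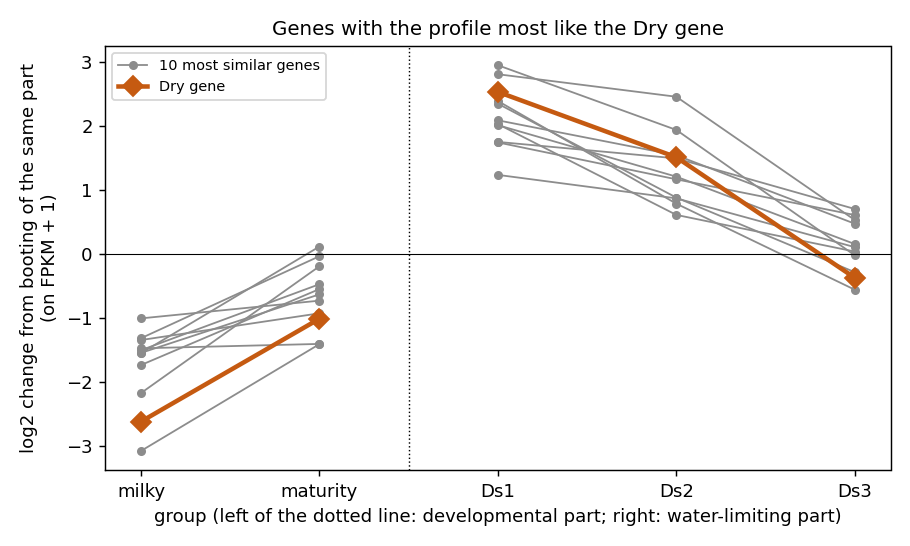
Log2 change from booting on FPKM + 1, within the same part, for the Dry gene (diamonds) and the 10 genes with the smallest root mean square difference from it (grey circles). The grey points have a median of -1.52 in milky, where the Dry gene is at -2.61, and lie between 1.24 and 2.95 in Ds1, around the Dry gene at 2.54.

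The cellulose synthase genes were low in milky, like the Dry gene, but they stayed low at maturity and were also low in the Ds groups. The IDs of these lists are recalled from the literature. Secondary-wall cellulose synthases (CESA), which spin the cellulose of thickened walls, were lower in milky at 3 of 3 members, beside 1.01% of all loci, with a median log2 change of -4.13 against -0.02 for all loci. At maturity all 3 were also lower by the rule, beside 0.754% of all loci, with a median of -3.93. The Dry gene was at -1.01 there and missed the rule. In Ds1, where the Dry gene was above booting, all 3 were again lower by the rule, beside 3.94% of all loci, with a median of -3.16 against -0.09. The 10 lignin genes build the phenolic polymer of those walls. In milky 0 of them passed the rule, beside 1.01% of all loci lower and 0.636% higher. At maturity 2 were lower, beside 0.754%. In Ds1 they held 4 lower and 0 higher, beside 3.94% and 6.30% of all loci. In both Ds2 and Ds3 they held 7 lower and 0 higher, beside 5.55% of loci lower in Ds2 and 5.16% in Ds3. In Ds3 the lignin median was -2.81 against -0.08 for all loci. By root mean square difference from the Dry gene the CESA genes ranked 15268, 15365 and 15420 of 15467. Pearson's r over the 5 changes gave another picture. It was 0.979 for Sobic.001G224300 and 0.922 for Sobic.002G205500, but -0.608 for Sobic.003G296400.

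Among the stem height genes, Dw3 (Sobic.007G163800), which encodes an auxin transporter, was nearest in profile to the Dry gene, at rank 55 with a difference of 1.07. Dw3 read 5.70 FPKM at booting, 2.57 in milky and 7.21 at maturity, and in the other part 4.87 at booting, 27.2 in Ds1, 27.6 in Ds2 and then 6.24 in Ds3. Both genes were above booting in Ds1 and Ds2, and in Ds3 they were near their booting levels, but Dw3 held its Ds1 level in Ds2. At maturity Dw3 was above booting, with a log2 change of 0.29 against -1.01 for the Dry gene. In milky it was at -0.91 against -2.61. Dw2 (Sobic.006G067700), a protein kinase gene, ranked 2333, and Dw1 (Sobic.009G229800), whose protein acts in brassinosteroid signalling, ranked 12611. By the rule 1 of the 3 height genes was higher in Ds1, beside 6.30% of all loci, 1 in Ds2, beside 5.96%, and 0 in Ds3, beside 5.47%.

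Both dehydration genes were above booting in Ds3, where the Dry gene was not. P5CS2 (Sobic.003G356000), a proline synthesis enzyme gene, read 123 FPKM at booting, 1224 in Ds1, 406 in Ds2 and then 303 in Ds3. It ranked 310 in likeness, with the highest level in Ds1 and the lowest developmental level in milky, as in the Dry gene. Unlike the Dry gene, it was above booting in Ds3 and at maturity. In the developmental part it read 143 FPKM at booting, 51.2 in milky and 273 at maturity. DHN1 (Sobic.009G116700), a dehydrin gene, read 0.664 FPKM at booting, 1197 in Ds1, 2284 in Ds2 and then 2143 in Ds3. By the rule both genes were higher in Ds1, beside 6.30% of all loci. DHN1 alone was higher in Ds2, beside 5.96%, and in Ds3, beside 5.47%.

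**Figure D4:**
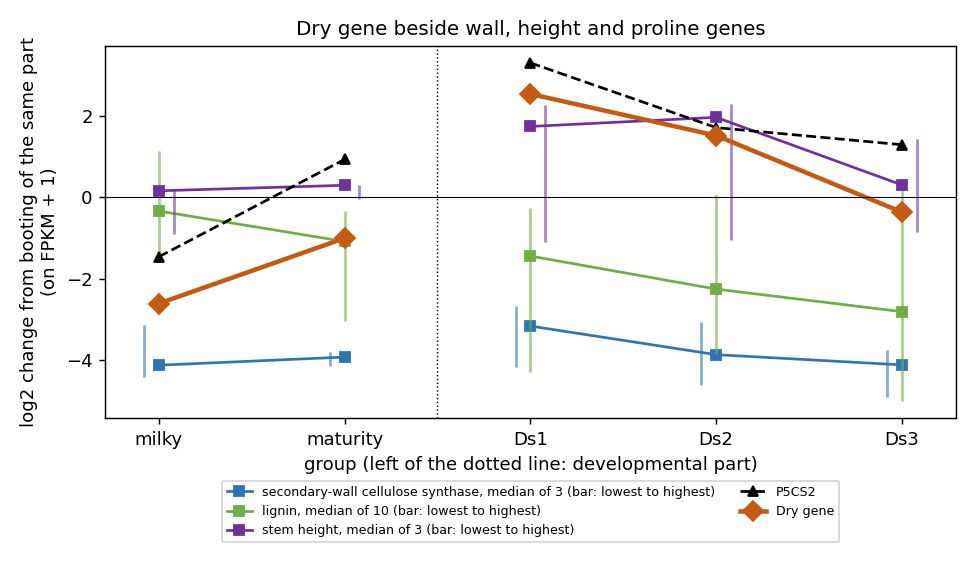
Log2 change from booting on FPKM + 1, within the same part, for the Dry gene (diamonds), P5CS2 (triangles) and the medians of 3 cellulose synthase, 10 lignin and 3 stem height genes (squares, with bars from the lowest to the highest member). In Ds1 the Dry gene stands at 2.54 and the cellulose synthase median at -3.16, while in milky both are below booting, at -2.61 and -4.13.

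Genes numbered next to the Dry gene did not follow it as a block. Of the 5 IDs before it and the 5 after it, 7 reached 1 FPKM in booting or Ds1. By the rule 2 of these 7 were higher in Ds1 and 0 lower, beside 6.30% and 3.94% of all loci. In Ds2 3 were higher and 0 lower, beside 5.96% and 5.55%, and in Ds3 2 and 0, beside 5.47% and 5.16%. Sobic.006G147800 was among the higher ones in Ds2 and Ds3, with log2 changes of 2.42 and 2.15. Sobic.006G147200 read 4.80 FPKM at booting, 37.9 in Ds1, 38.5 in Ds2 and then 16.6 in Ds3. Sobic.006G147700 read 3.29 at booting, 29.0 in Ds1, 43.6 in Ds2 and then 38.9 in Ds3. Both were above booting in all Ds groups, unlike the Dry gene in Ds3. The IDs directly beside it, Sobic.006G147350 and Sobic.006G147450, did not exceed 0.610 FPKM in any group. In the developmental part 0 of the neighbours passed the rule in milky, beside 0.636% of all loci higher and 1.01% lower. There Sobic.006G147300 read 16.7 FPKM against 38.0 at booting. In that part Sobic.006G147600 and Sobic.006G147700 share 1 locus and have no values of their own.

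**Figure D5:**
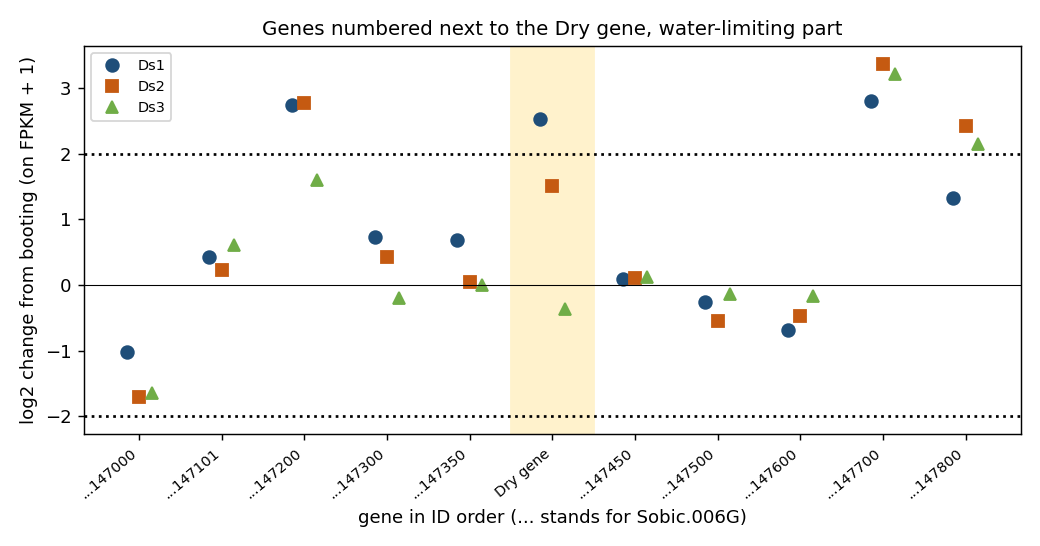
Log2 change from booting on FPKM + 1 in Ds1 (circles), Ds2 (squares) and Ds3 (triangles) for the 5 gene IDs on each side of the Dry gene (shaded), with dotted lines at a ratio of 4. Sobic.006G147200 and Sobic.006G147700 reach 2.75 and 2.80 in Ds1, and the IDs next to the Dry gene stay within 0.69 of 0.

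Tissue and harvest leave some limits. Of the leaf markers, the C4 PEPC gene (Sobic.010G160700) stayed at or under 0.180 FPKM in all groups, while PPDK (Sobic.009G132900) read 9.85 to 80.0 FPKM. The stem sugar transporter gene SUT1 (Sobic.001G488700) read 89.0 to 200 FPKM, the tonoplast sugar transporter gene (Sobic.004G099300) 54.4 to 219, and the glucan synthase gene CSLF6 (Sobic.007G050600) 8.75 to 93.1. By the rule CSLF6 was lower in Ds3, with a log2 change of -2.51, beside 5.16% of all loci. The hour of harvest is not given, and the dawn-peaking clock gene LHY (Sobic.007G047400) differed between groups. It read 324 FPKM at booting, 92.0 in milky and 339 at maturity, and in the other part 285 at booting, 40.1 in Ds1, 20.7 in Ds2 and then 45.8 in Ds3. LHY and the Dry gene were both low in milky, but in Ds1 LHY was low where the Dry gene was high. The part of harvest time in these differences was not tested.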

How the data were processed

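Per the labels' protocols, RNA was isolated with a modified Trizol procedure and libraries were built with a stranded total RNA kit. The submitters' processing notes name Bowtie2 2.2.9, Cuffdiff, cutadapt 1.8.1 and HISAT2 2.0.5, without role or setting. The genome build and the handling of strand are not given in the sources used here. The authors deposited FPKM values, 1 per group, in a developmental part (34458 loci) and a water-limiting part (34718 loci) with separate scaling. The unit comes from the table's name. Ratios were taken within a part only. Read totals are unknown.

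From these values log2(FPKM + 1) changes, ranks and likeness were computed in Python 3.11.15 with pandas 2.3.3, after a check on simulated data. That check planted changes only in well-expressed loci, so it did not cover the rule at the Dry gene's low levels. Loci naming no gene stayed out of counts. The genes named are the Dry gene, the 10 nearest in profile, 5 IDs on each side and lists of recalled IDs. LHY was added to the lists later. The rule, lists and tests were chosen with earlier results of these data known. Of 34129 IDs, 0 were found in RefSeq's gene table for NCBIv3, so lists by product name could not be filled and no sequence or coordinate is shown. Alternatives were pseudocounts of 0.1 and 5, other minimums, 3 other scalings and other measures of likeness.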

Additional observations from a re-analysis of the deposited data

How the results depend on the processing

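Over 9 comparisons, the Dry gene's change never turned direction under the 3 other scalings. Another pseudocount cannot turn the direction of a change. The change kept its side of the ratio of 4 under median-of-ratios scaling and quantile normalization. With a pseudocount of 5 it was -1.07 in milky against booting and 1.95 in Ds1 against booting, both short of the ratio. From 5.67 FPKM at booting, the milky change could not reach the ratio with a pseudocount of 5. With a pseudocount of 0.1 it was 3.66 in maturity against milky and -2.12 in Ds3 against Ds2, both past it. At 2.32 FPKM in maturity, the change from milky could not reach the ratio with a pseudocount of 1. With a common FPKM total it was 1.73 in Ds1 against booting. A smaller or larger pseudocount weighs low values more or less by construction.

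Counts of loci past the ratio, in the order milky, maturity, Ds1, Ds2 and Ds3 against booting, were 288, 133, 1895, 2153 and 1982. With a pseudocount of 0.1 they were 637, 337, 3571, 4017 and 3772, and with 5 they were 93, 42, 806, 839 and 773. For maturity against milky, Ds2 against Ds1, Ds3 against Ds2 and Ds3 against Ds1 they were 312, 415, 62 and 673, then 781, 886, 220 and 1449 with 0.1, and 92, 137, 14 and 245 with 5. Leaving out the minimum could not change any count. On FPKM + 1, a locus past the ratio always exceeds that minimum in its higher group. A minimum of 10 FPKM left each count within 1.5 times.

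Of the 10 genes most like the Dry gene, 4 were also found with a pseudocount of 0.1, 4 with 5, 1 by Pearson's r and 6 with profiles centred on each part's mean, an alternative chosen after seeing the data. The cause was not tested.

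No paired analysis was possible because the table holds 1 combined value per group, and for the same reason leaving out a library was not run. Depth is unknown, so the precision of the low milky value of 0.0921 FPKM cannot be given.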
